A study of Mus musculus with 41 samples.

Results

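A set of 10 genes of the endoplasmic reticulum (ER) was followed over the day in mouse epidermal stem cells under a control and a high fat diet. They are the chaperones and folding factors Hspa5, Hsp90b1, Calr, Creld2 and Pdia4, the cochaperone Dnajb9, the degradation factor Herpud1, and the transcription factors Xbp1, Atf4 and Ddit3. The members were chosen by name, with earlier results of these data known. All 10 were found among the 17097 genes that the platform annotation names. They have 18 probe sets, and each gene is given by its brightest probe set, taking the mean of all 41 arrays. Values are on the log2 scale, so a difference of 1 is a doubling. The number of arrays, and not a read depth, limits the precision.

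The cells came from the epidermis of wild type female C57B6/J mice, 15 weeks old, kept for 7 weeks on a high fat diet or on its control diet, with food always available. RNA was hybridised to 41 arrays, 20 for the control and 21 for the high fat diet. Collection times are zeitgeber times (ZT), in hours after lights on, 4 h apart. The first collection was at ZT0 and the last at ZT20. In that order the control groups hold 4, 3, 2, 3, 4 and 4 arrays, and the high fat groups hold 3, 4, 2, 4, 4 and 4. The labels give no sort or marker for the cells, and they do not tie arrays to single mice, so p-values reflect only how arrays of a group spread. The mice killed on a day belonged to 1 time point, so collection day and time point cannot be told apart. The design text does not settle whether both diets shared that day, so day may also differ between the diets wherever they are compared.

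Array medians lay between 6.41 and 6.44. The basal keratinocyte genes Krt5, Krt14, Col17a1 and Trp63 had means of 12.7, 12.6, 12.7 and 11.9 over all arrays, each in the top percent of gene means. Of the bulge stem cell genes, Krt15 ranked above 99.4% of gene means and Sox9 stood at 9.34, whereas Cd34 (5.30), Lgr5 (5.73) and Lhx2 (5.84) lay in the lower part of the range of gene means. The suprabasal genes Krt1 and Krt10 ranked above 99.9% and 99.4% of gene means, as far up as the basal ones. The plasma cell gene Jchain (4.28) and the leukocyte gene Ptprc (4.34) were among the lowest genes of the arrays, but other markers of their lists ranked higher. The leukocyte and Langerhans cell markers H2-Ab1, H2-Aa, Cd74 and Cd52 ranked above 76.1%, 73.2%, 70.6% and 67.9% of gene means. Cd3e and Cd207 ranked above 37% and 26%, and the plasma cell markers Prdm1 and Tnfrsf17 above 45.7% and 35.6%. In bulk RNA of this kind, fewer cells of a type and less RNA per cell cannot be told apart. Probe sets also differ in response, so these ranks do not measure the share of a cell type.

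Proteins that are secreted or set into membranes fold inside the ER, where Hspa5 (also called BiP) and Hsp90b1 (GRP94) bind unfolded chains, calreticulin (Calr) holds glycoproteins, and Pdia4 forms disulfide bonds. When unfolded proteins accumulate, 3 sensors of the ER membrane start the unfolded protein response. ATF6 and the spliced form of Xbp1 raise chaperone genes, and PERK raises translation of Atf4, which in turn raises Ddit3 (CHOP), a factor tied to cell death under lasting stress. Herpud1 and Dnajb9 (ERdj4) help to clear misfolded proteins by ER-associated degradation, and Dnajb9 also restrains the sensor IRE1. The arrays measured RNA, so neither the spliced share of Xbp1 nor the translation of Atf4 was measured here.

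The best known DNA element of this response is the ER stress response element, ERSE, written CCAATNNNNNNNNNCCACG. The shorter ERSE-II is written ATTGGNCCACG. Both were searched on both strands, from 250 bases before to 50 bases after each RefSeq start site (build GRCm38.p6), and all 10 genes have such a promoter. Hspa5, Hsp90b1, Calr and Creld2 hold an ERSE, against 39 of all 32851 promoters of this length (0.119%). Herpud1 holds an ERSE-II, against 0.0365% of promoters. They are shown because Creld2, Hsp90b1 and Calr, 3 of the 4 ERSE genes, were called lower at ZT16 under the high fat diet, and Herpud1 higher, as given further down. Chosen in this way, they are no test of what the elements do. Of 16 further tested genes with an ERSE, 1 was called lower at ZT16, as were 0.661% of all genes. Each element of the members is printed 5′ to 3′ on the strand of the gene, with 20 bases on each side. The capitals mark both ends of the element.
Hspa5, chr2:34772005-34772063, plus strand: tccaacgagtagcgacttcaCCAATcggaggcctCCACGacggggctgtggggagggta
Hsp90b1, chr10:86705513-86705676, minus strand: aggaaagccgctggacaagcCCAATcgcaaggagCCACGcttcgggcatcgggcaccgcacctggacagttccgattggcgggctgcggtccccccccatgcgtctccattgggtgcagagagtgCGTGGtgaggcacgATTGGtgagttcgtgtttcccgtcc
Calr, chr8:84847055-84847113, minus strand: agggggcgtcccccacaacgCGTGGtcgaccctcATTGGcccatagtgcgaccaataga
Creld2, chr15:88819500-88819558, plus strand: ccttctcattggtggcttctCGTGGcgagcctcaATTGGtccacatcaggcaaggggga
Herpud1, chr8:94386357-94386407, plus strand: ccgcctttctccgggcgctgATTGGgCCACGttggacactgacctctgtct
In Hspa5 the element reads forward and starts 65 bases before the start site. Hsp90b1 has 2 copies, a forward one starting 212 bases and a reversed one starting 107 bases before the start site. In Calr and Creld2 it is reversed and starts 162 and 126 bases before the start site. The element of Herpud1 starts 52 bases before it.

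Further motifs were searched in the same way. The CCACG part, which is contained in both elements, occurs in 8 of the 10 promoters and in 32.8% of all promoters. TGACGTGG, an element bound by XBP1 (UPRE), occurs in none of the 10 and in 0.676% of all promoters. TGATGNAA, an amino acid response element bound by ATF4 (AARE), occurs in Herpud1 alone among the 10 and in 3.97% of all promoters. A match of letters is a description and not a measured site.

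The diet was associated with changes of the 10 genes that depended on the hour. A gene is called where its adjusted p (limma, Benjamini-Hochberg over all 17097 genes) is under 0.05. The largest count was at ZT16, where Creld2, Hsp90b1 and Calr were lower and Herpud1 was higher under the high fat diet. That is 4 of 10 called, against a background of 1.24% of all genes tested, and 3 of 10 called lower, against 0.661%. The 10 genes were chosen with earlier results of these data known. Setting their counts against all genes, here and below, is therefore a description and no test. At ZT12, Pdia4 and Ddit3 were higher and Hspa5 was lower, and 3 of 10 called compares with 18.0% of all genes. The 2 called higher there compare with 13.6% called higher, so these shares are near the background. Only Dnajb9 was called at ZT0 (background 0.854%), and only Ddit3 at ZT8 (8.34%) and at ZT20 (0.702%), higher in each case. The 1 of 10 at ZT8 is near the background. At ZT4 limma called 0 of 10 (0.386% of all genes). There 1 member, Creld2, had an unadjusted p under 0.05, as did 11.9% of all genes. Averaged over the 6 time points, only Ddit3 was called between the diets with the probe sets used here. As a share, 1 of 10 is near the background of 7.59%. The other probe set of Hsp90b1 was called lower on this average (-0.13 ± 0.04, SE, adjusted p = 0.0373), where the first gave 0.02 ± 0.03. The other probe set of Atf4 was called higher (0.115 ± 0.036, adjusted p = 0.0435).

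**Figure D1:**
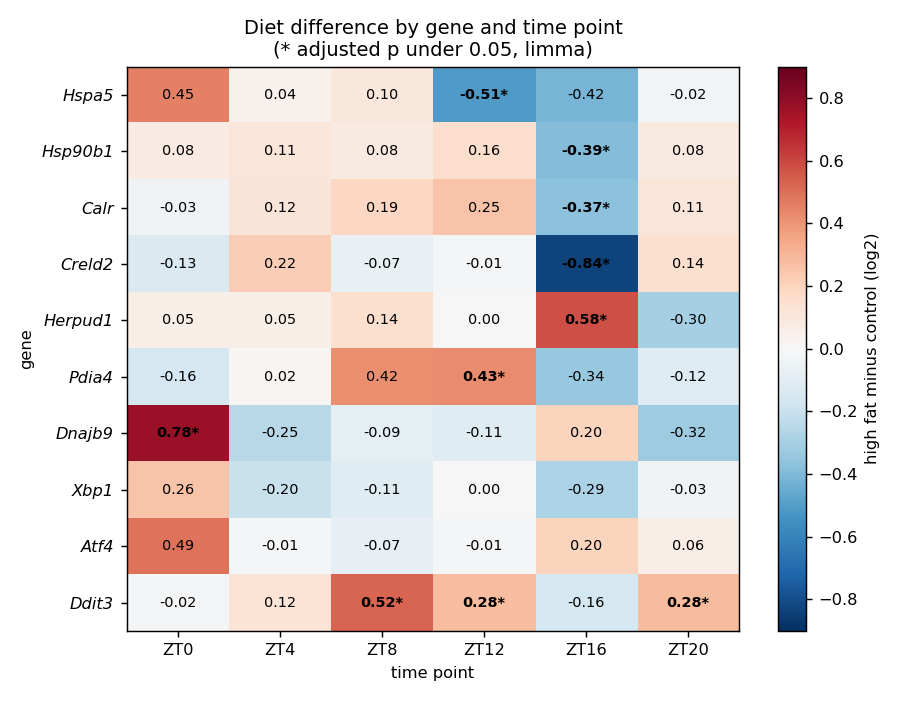
Difference between the diets (high fat minus control, log2, colour and printed number) for each of the 10 genes (rows) at each time point (columns), with a star where the adjusted p is under 0.05. The strongest fall is Creld2 at ZT16 (-0.84) and the strongest rise is Dnajb9 at ZT0 (0.78).

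The test of whether the diet difference itself varied between time points called 8 of the 10 genes, against 19.0% of all genes. Creld2 had the smallest adjusted p of that test (7.73e-05), followed by Herpud1 (0.000827). Xbp1 (0.304) and Atf4 (0.150) were not called. Without ZT12, 5 of the 10 were called, and Hspa5 (0.0604), Calr (0.0588) and Pdia4 (0.0967) were not. The other probe sets of Hsp90b1 (0.0539) and Herpud1 (0.0864) missed the threshold of this test.

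Most of the 10 genes varied over the day in each diet. In the control diet 9 of 10 were called for any difference between time points, all but Xbp1 (adjusted p = 0.338), against 43.9% of all genes, and with the mean of the probe sets of a gene all 10 were called. Under high fat feeding 9 of 10 were called, all but Ddit3 (0.118), against 41.5%. These tests ask for a time course of any shape, and each time point is also a collection day.

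**Figure D2:**
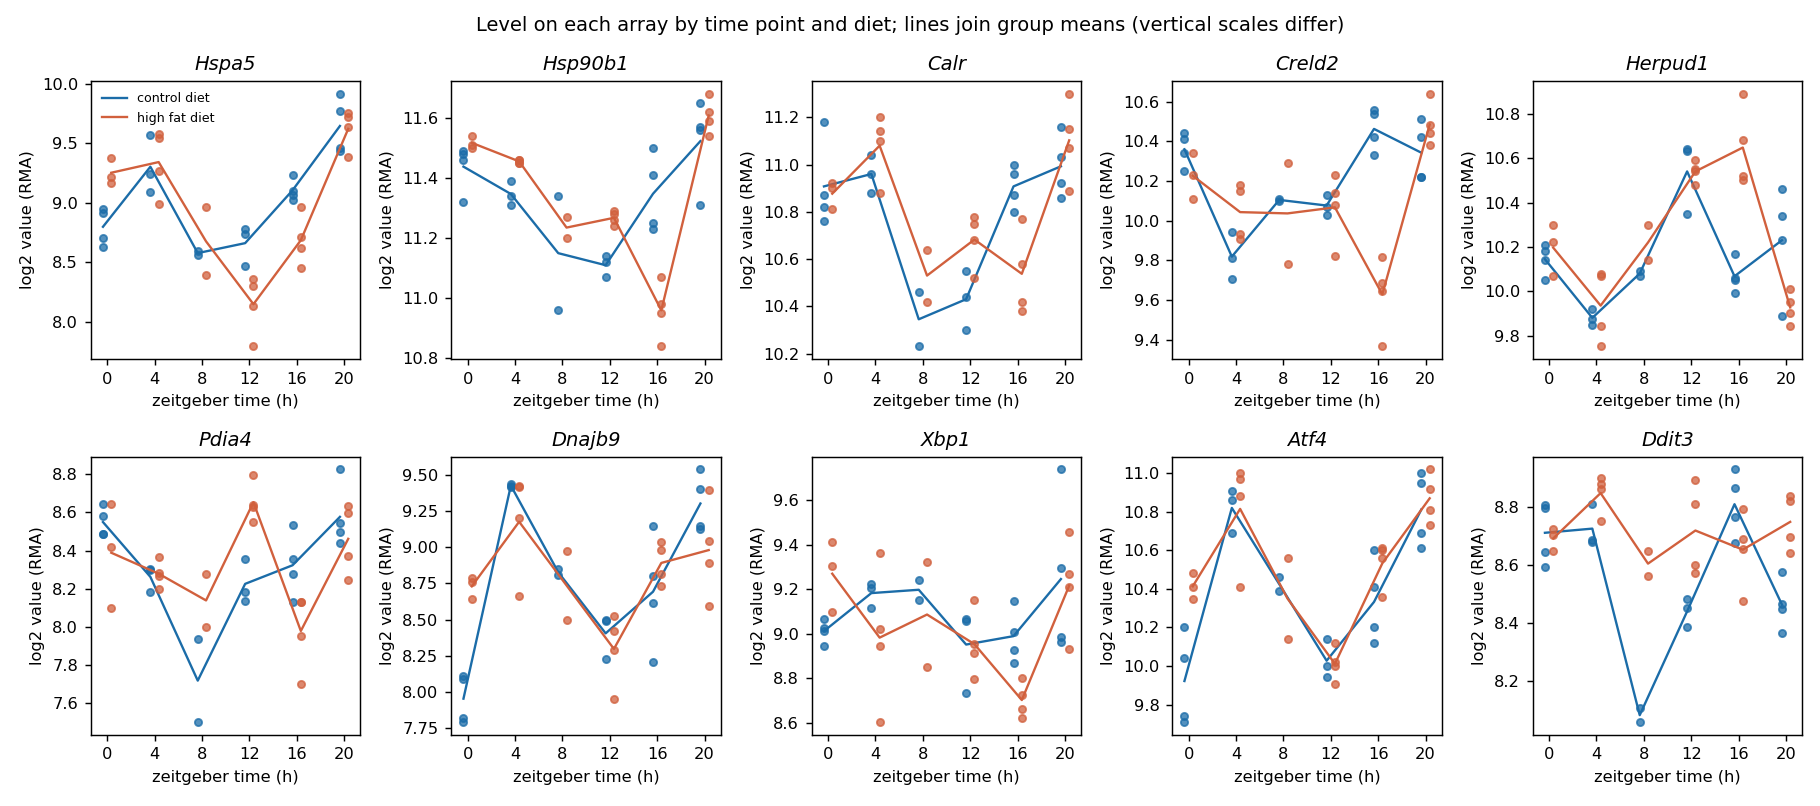
Level (log2) of each of the 10 genes on every array against zeitgeber time in hours, control diet in blue and high fat diet in orange, with lines through the group means and a separate vertical scale for each gene. Hspa5 has its lowest group mean at ZT12 in the high fat diet (8.15), Ddit3 at ZT8 in the control diet (8.08), and Creld2 at ZT16 in the high fat diet (9.63).

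Hspa5, the main ER chaperone and a reporter of ER stress, had the widest daily range of the 10 genes in the high fat diet. In the control diet its group means from ZT0 to ZT20, in steps of 4 h, were 8.80 ± 0.157, 9.30 ± 0.245, 8.58 ± 0.024, 8.66 ± 0.166, 9.11 ± 0.091 and 9.65 ± 0.236 (SD). Under the high fat diet they were 9.25 ± 0.111, 9.34 ± 0.274, 8.68 ± 0.402, 8.15 ± 0.255, 8.69 ± 0.215 and 9.62 ± 0.167. The level was thus highest at ZT20 in both diets, and lowest at ZT8 in the control diet and at ZT12 in the high fat diet. From highest to lowest mean the range was 2.10-fold in the control and 2.78-fold in the high fat diet. Arrays of the highest and the lowest time point did not overlap. These time points were picked as the extremes of the means, so the gap is a description and no test. The control low at ZT8 rests on 2 arrays. ZT8 and ZT12 lay within their spread of each other in the control diet.

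At ZT12 the control arrays of Hspa5 read 8.47, 8.73 and 8.78, and the high fat arrays read 7.79, 8.14, 8.30 and 8.36. All high fat arrays lay below all control arrays. The difference was -0.51 ± 0.15 (SE), a ratio of 0.701, with an adjusted p of 0.0198 (limma). At ZT16 the control arrays read 9.03, 9.06, 9.10 and 9.23, and the high fat arrays 8.45, 8.62, 8.71 and 8.96, again without overlap, but the difference of -0.42 ± 0.14 was not called (adjusted p = 0.122). At ZT0 the order was the reverse, with control arrays at 8.63, 8.70, 8.91 and 8.95 and high fat arrays at 9.17, 9.21 and 9.38. That difference was 0.45 ± 0.15, with an adjusted p of 0.163, and was not called either.

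The probe sets of Hspa5 disagree on the diet difference at 2 time points, although they correlate at 0.92 over the 41 arrays. The other probe set gave -0.09 ± 0.14 at ZT12 (adjusted p = 0.702) and was called higher at ZT8 (0.70 ± 0.19, adjusted p = 0.0167), where the first gave 0.10 ± 0.20. At ZT16 it was called lower (-0.51 ± 0.13, adjusted p = 0.0474). The call at ZT12 was lost without control replicate 2 (adjusted p = 0.0825), control replicate 3 (0.0843) or high fat replicate 3 (0.0932) of that time point.

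Hsp90b1, the ER form of the Hsp90 chaperones, was lower at ZT16 under the high fat diet. The control arrays read 11.23, 11.25, 11.41 and 11.50, and the high fat arrays read 10.84, 10.95, 10.98 and 11.07. The groups did not overlap, and ZT16 gave the lowest mean of the day in the high fat diet (10.96 ± 0.093, SD, n = 4). The difference was -0.39 ± 0.07 (SE), a ratio of 0.765, with an adjusted p of 0.00198 (limma), and the other probe set gave -0.45 ± 0.09 (adjusted p = 0.00618). At the other 5 time points the difference lay between 0.08 and 0.16 and was not called. At ZT0, ZT4 and ZT12 all high fat arrays nevertheless lay above all control arrays with this probe set. The widest of these gaps was at ZT12, with 11.07, 11.12 and 11.14 against 11.24, 11.26, 11.28 and 11.29 (adjusted p = 0.123). The other probe set gave differences of the opposite sign at these times (-0.03 ± 0.09, -0.05 ± 0.09 and -0.15 ± 0.09), none of them called. The share of all genes without overlap was counted at ZT16 only.

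Calr followed Hsp90b1 at ZT16. The control arrays of Calr read 10.80, 10.87, 10.96 and 11.00, and the high fat arrays 10.38, 10.42, 10.58 and 10.77, with the highest of these just below the lowest control array. The difference was -0.37 ± 0.10 (SE), a ratio of 0.773, close to the threshold with an adjusted p of 0.0484 (limma). The other probe set gave -0.54 ± 0.12 (adjusted p = 0.0209). The call was kept in 21 of the 41 fits that left out 1 array, and the adjusted p reached 0.126 without high fat replicate 1 of ZT16. At ZT12 the high fat arrays were at 10.52, 10.68, 10.75 and 10.78 against 10.30, 10.44 and 10.55, which overlap, and the difference of 0.25 ± 0.10 was not called (adjusted p = 0.0855). At ZT8 the other probe set was called higher under the high fat diet (0.71 ± 0.17, adjusted p = 0.00842), while the one used here gave 0.19 ± 0.14.

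Creld2, a secreted ER protein with disulfide isomerase activity that is strongly induced by ER stress, had the largest difference of the 10 genes. At ZT16 the control arrays read 10.33, 10.42, 10.54 and 10.56, and the high fat arrays read 9.37, 9.65, 9.69 and 9.82. The highest high fat array was below the lowest control array by more than the whole range of either group. The difference was -0.84 ± 0.10 (SE), a ratio of 0.560, with an adjusted p of 2.76e-05 (limma). The call was kept in all 41 fits that left out 1 array, with an adjusted p of at most 0.00046.

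Over the day, Creld2 in the control diet ran through group means of 10.36, 9.82, 10.11, 10.08, 10.47 and 10.34 from ZT0 to ZT20. In the high fat diet the means were 10.23, 10.04, 10.04, 10.07, 9.63 and 10.49. ZT16 was thus the highest time point of the control diet and the lowest of the high fat diet. At ZT20, 4 h later, the control arrays read 10.22, 10.22, 10.42 and 10.51 and the high fat arrays 10.38, 10.44, 10.48 and 10.64. These groups overlap, and the difference of 0.14 ± 0.10 was not called (adjusted p = 0.528).

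Pdia4, a disulfide isomerase, was higher at ZT12 under the high fat diet. The control arrays read 8.14, 8.18 and 8.36, and the high fat arrays read 8.55, 8.63, 8.64 and 8.80. The groups did not overlap. The difference was 0.43 ± 0.12 (SE), a ratio of 1.34, with an adjusted p of 0.0141 (limma), and the call was lost without control replicate 2 (0.0754), control replicate 3 (0.0508) or high fat replicate 3 (0.0505) of ZT12. At ZT8, with 2 arrays a diet, 7.50 and 7.94 stood against 8.00 and 8.28, and the difference of 0.42 ± 0.16 was not called (adjusted p = 0.0985). It was called without control replicate 1 of ZT8 (0.64, adjusted p = 0.0294). At ZT16 the control arrays read 8.13, 8.28, 8.35 and 8.53 and the high fat arrays 7.70, 7.95, 8.13 and 8.13, which overlap at their edges (-0.34 ± 0.11, adjusted p = 0.107). ZT12 was the highest and ZT16 the lowest mean of Pdia4 in the high fat diet, 8.65 ± 0.104 and 7.98 ± 0.202 (SD, n = 4 each).

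**Figure D3:**
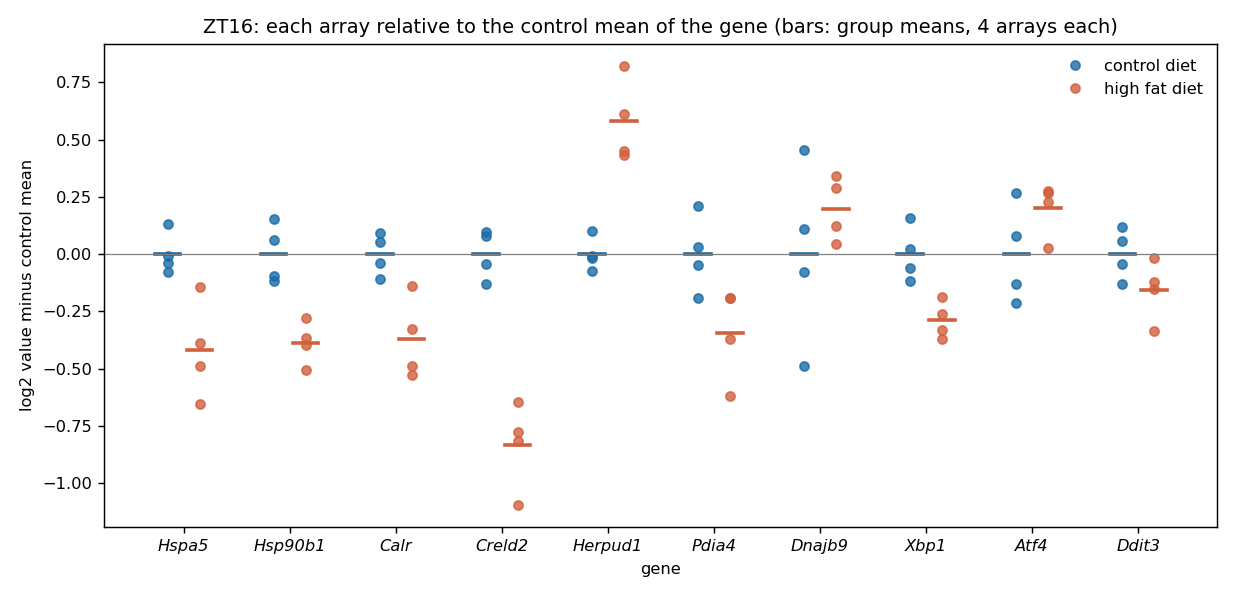
Level of each of the 10 genes on each array at ZT16, as the log2 value minus the mean of the 4 control arrays of that gene, with control arrays in blue, high fat arrays in orange and bars at the group means. All high fat arrays of Hspa5, Hsp90b1, Calr, Creld2 and Xbp1 lie below all control arrays, and all those of Herpud1 lie above.

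Of the 10 differences at ZT16, 7 were negative, and their median was -0.32, the furthest from 0 of any time point, against -0.0025 for all genes tested. In 6 of the 10 genes the arrays of the diets did not overlap, against 8.64% of all genes tested by the same rule, and 1.24% of all genes were called. At ZT12 the median of the 10 was 0.0011 and that of all genes 0.0535. No marker of basal, bulge, suprabasal, fibroblast, leukocyte, plasma cell, melanocyte, endothelial or sebocyte lists was called between the diets at ZT16, and the 5 bulge markers had a median difference of -0.16, all negative. The part of cell makeup in these results was not tested.

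Herpud1 ran opposite to the chaperones at ZT16. The control arrays read 9.99, 10.05, 10.06 and 10.17, and the high fat arrays read 10.50, 10.52, 10.68 and 10.89. All high fat arrays lay above all control arrays. The difference was 0.58 ± 0.09 (SE), a ratio of 1.49, with an adjusted p of 0.000895 (limma), and the other probe set gave 0.66 ± 0.15 (adjusted p = 0.0250).

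In the control diet the level of Herpud1 was highest at ZT12 (10.54 ± 0.165, SD, n = 3) and had come down to 10.07 ± 0.076 by ZT16. Under the high fat diet it was 10.54 ± 0.047 at ZT12, equal to the control within the spread, and still 10.65 ± 0.179 at ZT16. At ZT20 the high fat arrays of 9.85, 9.90, 9.95 and 10.01 stood against 9.89, 10.23, 10.34 and 10.46. That difference of -0.30 ± 0.09 was not called (adjusted p = 0.104), and without control replicate 1 of ZT20 it was -0.41 and called (0.0362).

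Dnajb9 was higher at ZT0 under the high fat diet. The control arrays read 7.79, 7.82, 8.09 and 8.11, and the high fat arrays read 8.64, 8.76 and 8.79. The groups lay clearly apart. The difference was 0.78 ± 0.18 (SE), a ratio of 1.71, with an adjusted p of 0.0350 (limma). The call was lost when any of 5 of the 7 arrays of ZT0 was left out, namely control replicate 2 (0.0866) or 3 (0.0987) and high fat replicate 1 (0.0674), 2 (0.126) or 3 (0.161). Of the cell type markers only H2-Aa, a class II gene of Langerhans cells, was called at ZT0 (-0.49), and its part was not tested. Of all genes, 0.854% were called at ZT0.

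The low ZT0 level of Dnajb9 belongs to the control diet. There the group mean climbed from 7.95 ± 0.172 (SD) at ZT0 to 9.43 ± 0.012 at ZT4, a 2.77-fold range and the largest among the 10 genes in that diet. At ZT8, ZT12, ZT16 and ZT20 the control means were 8.83, 8.41, 8.69 and 9.30. In the high fat diet the range was 1.84-fold, from 8.30 ± 0.249 at ZT12 to 9.18 ± 0.357 at ZT4.

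Xbp1, the factor whose RNA is spliced by IRE1, had group means between 8.95 and 9.25 in the control diet, and this time course was not called (adjusted p = 0.338, limma). It was called with the mean of its probe sets (0.0433) and with 1 of its 3 other probe sets on its own (0.0114). In the high fat diet it was highest at ZT0 (9.27 ± 0.160, SD, n = 3) and lowest at ZT16 (8.70 ± 0.080, n = 4), a 1.48-fold range. No diet difference of Xbp1 was called at any time point. At ZT16 the control arrays read 8.87, 8.93, 9.01 and 9.15 and the high fat arrays 8.62, 8.66, 8.73 and 8.80, which do not overlap. The difference was -0.29 ± 0.14 (SE, adjusted p = 0.307), and its 3 other probe sets gave -0.61, -0.23 and -0.32, none of them called. The call for a time course in the high fat diet (adjusted p = 0.0201) was lost without high fat replicate 1 of ZT16 (0.0544).

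Atf4, the factor of the PERK branch, had a daily course close to that of Dnajb9. In the control diet the group means of Atf4 from ZT0 to ZT20 were 9.92, 10.82, 10.42, 10.03, 10.33 and 10.81, and under high fat feeding 10.41, 10.81, 10.35, 10.01, 10.53 and 10.87. The arrays of the diets overlapped at every time point but ZT0. There the control arrays read 9.71, 9.74, 10.04 and 10.20 and the high fat arrays 10.35, 10.41 and 10.48, with no overlap. The difference of 0.49 ± 0.13 (SE) missed the threshold (adjusted p = 0.0621, limma), and it was called in 3 of the fits that left out 1 array, such as without control replicate 4 of ZT0 (0.0339). The other probe set of Atf4 read 6.92 on average against 10.45, followed the first at a correlation of only 0.10, and was called for no time course in either diet. It was called higher under the high fat diet at ZT12 (0.35 ± 0.08, adjusted p = 0.00481).

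Ddit3 encodes CHOP, the last member in the order of the pathway. It was the only one called on the diet average with the probe sets used here, where 7.59% of all genes were called. At ZT8 the control arrays read 8.06 and 8.11 and the high fat arrays 8.56 and 8.65. The difference was 0.52 ± 0.10 (SE), a ratio of 1.44, with an adjusted p of 0.00119 (limma), and it stayed called in each of the 41 fits that left out 1 array. At ZT12 the control arrays read 8.39, 8.45 and 8.48 and the high fat arrays 8.57, 8.60, 8.81 and 8.89. The groups did not overlap there either, and the difference was 0.28 ± 0.08 (adjusted p = 0.0106). This ZT12 call was lost without control replicate 1 of ZT12 (0.0556). It was also lost with the median of tested genes subtracted from each array (0.22, adjusted p = 0.0574). At ZT20 the control arrays read 8.37, 8.45, 8.47 and 8.58 and the high fat arrays 8.64, 8.70, 8.82 and 8.84, a difference of 0.28 ± 0.07 (adjusted p = 0.0461). That call was kept in 21 of the 41 fits that left out 1 array, and its adjusted p reached 0.142 without control replicate 1 of ZT20.

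The daily course of Ddit3 was flatter under the high fat diet. In the control diet the means from ZT0 to ZT20 were 8.71, 8.73, 8.08, 8.44, 8.81 and 8.46, a 1.65-fold range. Under high fat feeding they were 8.69, 8.85, 8.60, 8.72, 8.65 and 8.75, a 1.18-fold range. The diet difference itself differed between time points (adjusted p = 0.00114). The average difference over the day was 0.17 ± 0.03 (ratio 1.13, adjusted p = 0.00204), and without ZT8 it was 0.10 and not called (0.0674).

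A 24 h cosine was fitted to each gene in each diet, with the amplitude measured from the middle of the curve to its top, in log2 units. In the control diet 3 of the 10 genes were called, against 6.66% of all genes. These were Calr (amplitude 0.30 ± 0.06, SE, peak at ZT21.7), Hsp90b1 (0.20 ± 0.05, peak at ZT21.7) and Pdia4 (0.33 ± 0.08, peak at ZT21.0), all folding factors. Hspa5 was not called in this diet (adjusted p = 0.0905). It was called with its other probe set (amplitude 0.48, peak at ZT21.0, adjusted p = 0.019) and with the mean of its probe sets (0.0309). High fat feeding gave 4 called of the 10, against 11.2%. The fitted curves of Hspa5 (0.69 ± 0.10, peak at ZT23.4), Hsp90b1 (0.23 ± 0.04, peak at ZT0.63) and Calr (0.25 ± 0.06, peak at ZT0.29) peaked around lights on. That of Herpud1 (0.33 ± 0.06) peaked on the other side of the day, at ZT13.3. The highest group mean of Hspa5, Hsp90b1 and Calr in this diet was at ZT20, and Calr read 11.1 there, 10.87 at ZT0 and 11.08 at ZT4. With its other probe set Calr was not called in this diet (adjusted p = 0.0930). The test of a difference in the cosine between the diets called 0 of the 10 genes by limma, against 3.58% of all genes. Its unadjusted p was under 0.05 for 4 of the 10 and for 17.5% of all genes. With arrays of the same diet and hour treated as a random block, only Hspa5 in the high fat diet was still called, and without ZT8 no member was called in the control diet, where the adjusted p of Calr was 0.111, that of Hsp90b1 0.0686 and that of Pdia4 0.290. Peak times resolve no finer than the 4 h between collections.

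The 10 genes did not vary together as 1 unit. Over the 41 arrays, the correlation between members ran from -0.68 to 0.91 over the 45 pairs, with a median of 0.27, and 14 pairs were negative. Atf4 and Dnajb9 were the closest pair (0.91, and 0.74 after group means were subtracted), followed by Hsp90b1 and Calr (0.81 and 0.53) and by Hspa5 and Atf4 (0.77 and 0.60). Hspa5 and Hsp90b1 correlated at 0.62 over all arrays and at 0.01 once group means were subtracted. Herpud1 was negatively correlated with each of the other 9 genes, most with Hspa5 (-0.68, and -0.62 within groups). The points share arrays, RNA preparations and the normalization, and Atf4, Hspa5 and Dnajb9 also follow the first principal component of all genes (correlations of 0.81, 0.73 and 0.72).

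**Figure D4:**
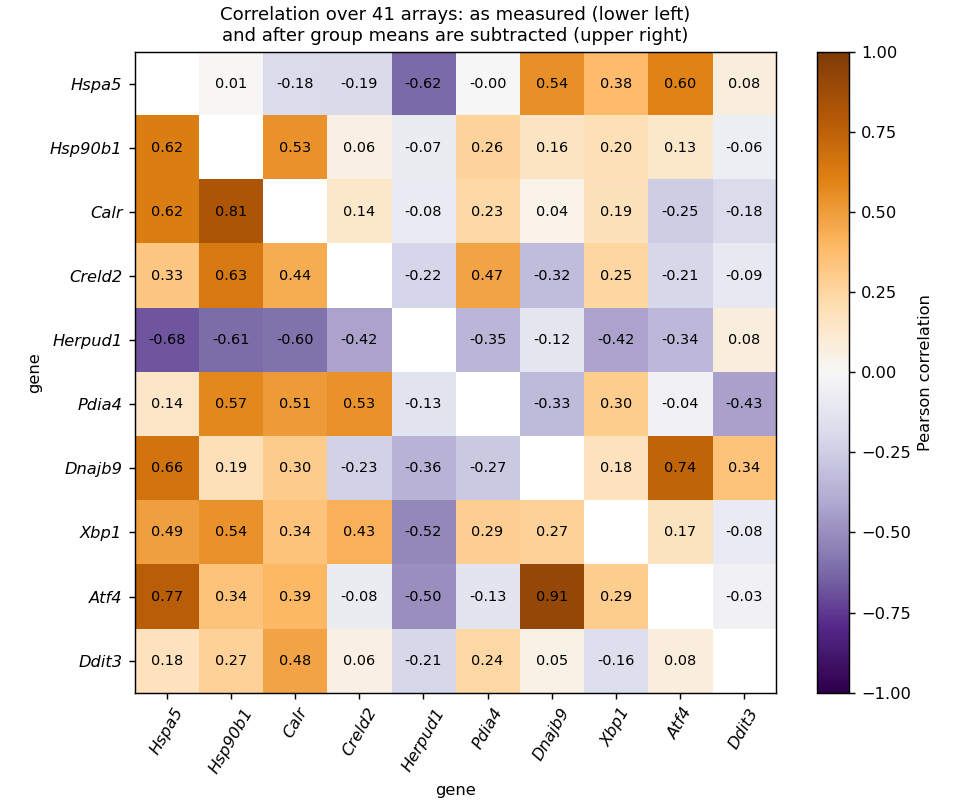
Pearson correlation between each pair of the 10 genes over the 41 arrays, as measured (lower left) and after the mean of each diet and time point was subtracted (upper right), from -1 (purple) to 1 (brown). The Herpud1 row and column are mostly purple, and the Atf4 and Dnajb9 pair is the darkest brown in each triangle (0.91 and 0.74).

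The genes outside the list whose levels over the 41 arrays were most like those of Hspa5 were Vapa (0.86), Nufip2 (0.86), Dnaja1 (0.85) and Top1 (0.83), followed by Pnrc1, Slc25a25, Tubb2a and Txnrd1. After group means were subtracted the closest were Eif4a1 (0.77), Cdcp1 (0.77) and Esyt2 (0.76), and 1 of the 8 closest genes, Top1, was shared by both rankings. For Ddit3 the most like were Tln1 (0.78), Shmt2 (0.77), Creb1 (0.75) and Plod3 (0.74), and none of its 8 closest genes was among the 8 closest within groups, led by Etaa1 (0.74).

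Around the 10 genes, 4 lists of the same pathway held 96 genes, of which 89 were measured. The list of ER folding and redox factors, with 21 of 22 measured, had 5 genes called higher and 0 lower under the high fat diet at ZT8, where 5.42% of all genes were called higher, led by the collagen chaperone Serpinh1 (1.14 ± 0.29, SE, adjusted p = 0.0134), the secreted factor Manf (0.67 ± 0.17, adjusted p = 0.0124) and Erp29 (0.50 ± 0.10, adjusted p = 0.00198). The median over the list was 0.28, and that of all genes was 0.030. At ZT12, 4 of its genes were called higher and 0 lower, a share near the 18.0% of all genes called and the 13.6% called higher, led by the proline isomerase Ppib (0.55 ± 0.11), Cnpy2 (0.49 ± 0.12) and Erp29 (0.44 ± 0.08). At ZT16 only Pdia6, a disulfide isomerase, was called, and it was lower (-0.42 ± 0.09, adjusted p = 0.0121), with a list median of -0.08. Of all genes, 0.661% were called lower there. At ZT20, where 0.702% of all genes were called, only the oxidase Ero1a was called, and it was higher (0.48 ± 0.10, adjusted p = 0.0229).

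The list of ER-associated degradation and protein translocation, with 23 of 26 measured, had 7 genes called higher and 1 lower at ZT12, where 13.6% of all genes were called higher and 18.0% were called in all. The translocon genes Ssr4 (0.73 ± 0.18) and Sec61b (0.58 ± 0.10) and the signal peptidase subunit Spcs1 (0.34 ± 0.06) were the largest of these rises. Sel1l, the partner of the ubiquitin ligase Syvn1, was the gene called lower (-0.32 ± 0.09). At ZT8 Ssr2 (0.56 ± 0.15) and Sec61b (0.51 ± 0.13) were called higher (5.42% of all genes). Spcs2 was called lower at ZT16 (-0.41 ± 0.09), as were 0.661% of all genes. Spcs1 was called lower at ZT20 (-0.31 ± 0.06), where 0.702% of all genes were called in either direction. Herpud1 was the only degradation factor of these and the 10 genes called higher at ZT16.

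Among the stress sensors and the proteins that process them, 16 of 18 were measured. At ZT12, 3 were called higher and 1 lower, near the background of 18.0% called and 13.6% called higher. Bak1, a pore protein of cell death that also binds IRE1, was higher at ZT8 (1.07 ± 0.19) and at ZT12 (1.07 ± 0.15), a ratio of 2.10 at ZT12. Ern1, which encodes IRE1, was lower at ZT12 (-0.76 ± 0.19, ratio 0.592, adjusted p = 0.00689), and the kinase Eif2ak2 was higher (0.83 ± 0.22). Of the ATF4 and CHOP response, 29 of 30 were measured, and 5 were called higher and 1 lower at ZT12, again near that background. The stress factor Nupr1 (0.59 ± 0.21), the glycyl-tRNA synthetase Gars (0.44 ± 0.14) and the pseudokinase Trib3 (0.42 ± 0.12) were the largest, and Atf3 was the one called lower (-0.24 ± 0.06). At ZT8 the serine synthesis gene Psat1 (0.55 ± 0.15) and the proline synthesis gene Aldh18a1 (0.43 ± 0.13) were called higher, which is no larger a share of the list than the 8.34% of all genes called. At ZT16 no gene of this list was called (1.24% of all genes). None of the 4 lists had a gene called at ZT0 or ZT4, where 0.854% and 0.386% of all genes were called.

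**Figure D5:**
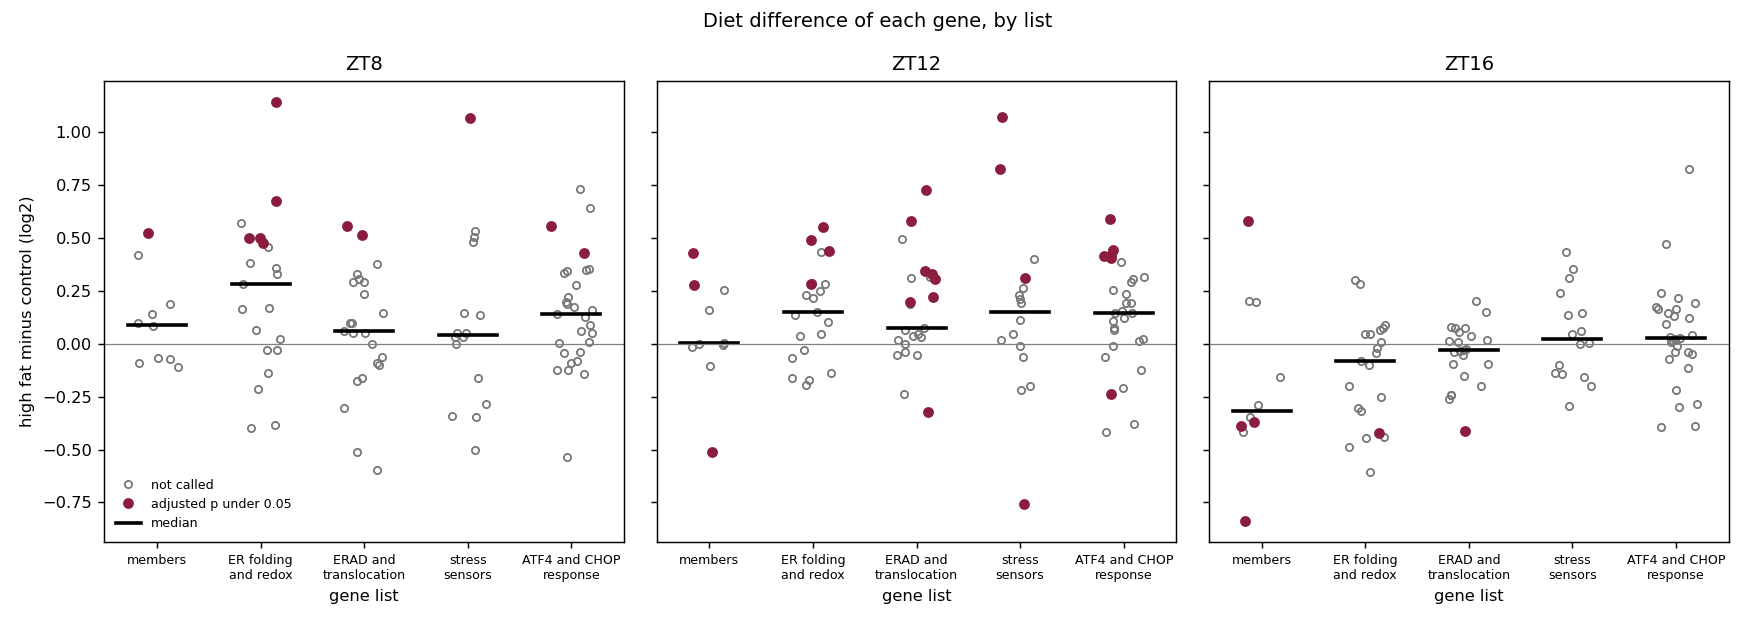
Difference between the diets (high fat minus control, log2) for each gene of the 10 members and of the 4 pathway lists at ZT8, ZT12 and ZT16, with filled points for an adjusted p under 0.05 and bars at the medians. The bar of the members lies at -0.32 at ZT16, and that of the folding list at 0.28 at ZT8.

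The direction of these list counts depends in part on how arrays were centred. Over all genes, 75.4% of the calls at ZT12 were higher under the high fat diet, and 51.0% once the median of the tested genes was subtracted from each array. At ZT8 the shares were 64.9% and 47.6%, at ZT20 44.2% and 33.1%, at ZT0 52.7% and 41.3%, and for the diet average 72.8% and 40.9%. With the medians subtracted, the ATF4 and CHOP list had 3 genes higher and 3 lower at ZT12, the folding list 3 and 0, the degradation list 4 and 1, and the sensors 2 and 2.

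Cell type markers also moved at ZT8 and ZT12. Of all genes, 18.0% were called at ZT12 and 13.6% called higher, and at ZT8 the shares were 8.34% and 5.42%. The lists are short, so 1 call in a list is not set apart from these shares. At ZT12, 3 of 5 bulge markers were called higher (Lgr5, 1.32; Cd34, 0.73; Krt15, 0.27), as were 3 of 7 suprabasal markers (Lor, 0.79; Calm4, 0.47; Sbsn, 0.30). Of 7 leukocyte and Langerhans cell markers, 4 were called higher (H2-Ab1, H2-Aa, Cd74 and Cd207, from 0.45 to 0.94) and Cd52 was called lower (-0.71). The melanocyte genes Pmel (-0.89) and Sox10 (-0.20), 2 of 5 markers, were called lower. At ZT8 the suprabasal markers went the other way, with Calm4 (-0.64), Dsg1a (-0.63) and Sbsn (-0.55) called lower. The basal marker Krt14 (0.37) and the leukocyte markers Cd3e (0.92) and H2-Aa (0.79) were called higher there. The bulge marker Lhx2 (-0.90), the fibroblast marker Dcn (-0.39), the endothelial marker Pecam1 (-0.28) and the plasma cell marker Prdm1 (-0.39) were called lower. The part of these markers in the list counts was not tested.

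Beyond the members, 16 further tested genes hold an ERSE in their promoter. At ZT16, 9 of these 16 had a negative difference, their median was -0.0112, and 1, Pdia6, was called lower (0.661% of all genes). The lowest was Ero1b, an ER oxidase, which was not called (-0.49 ± 0.14, SE, adjusted p = 0.0669). The median of these 16 genes thus stood near that of all genes tested (-0.0025).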

How the data were processed

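The 41 arrays measured RNA of epidermal stem cells from mice. The deposited values are on the log2 scale and were made by the authors with RMA, per the submitters' processing notes. RMA removes background, makes array distributions alike and merges the probes of each set, so the signal over background is unknown here. Its version is not given in the sources used here. Samples were grouped by the diet and time point in the labels. Probe sets with several genes were left out, and the probe set with the highest mean stood for a gene. No filter on low values was applied.

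limma 3.58.1 (R 4.3.3) fitted 1 mean for each of the 12 groups (29 residual degrees of freedom), or a 24 h cosine in each diet (35 residual), and Benjamini-Hochberg adjustment over 17097 genes at 0.05. They were tested on simulated data. Named genes are all members, up to 3 called genes of a list and comparison with the largest difference, and the genes most like Hspa5 and Ddit3; the markers named, Creld2 at ZT4, Ero1b and the promoter motifs were chosen after values were seen. Members and lists were chosen with earlier results of these data known. Alternatives were the mean of probe sets, other probe sets, dim genes left out, robust eBayes with a trend, subtracted medians, a replicate block, array weights, leaving out arrays or a time point, and a random block. Same-numbered arrays of both diets gave correlations from -0.27 to 0.25, so the numbers do not pair arrays.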

Additional observations from a re-analysis of the deposited data

Results flagged for a closer look

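The diet difference itself differed between time points in 8 of the 10 genes, by the limma test of 5 coefficients with p adjusted over all genes. The same test called 19.0% of all genes. The adjusted p was 7.73e-05 for Creld2, 0.000827 for Herpud1, 0.00114 for Ddit3, 0.00118 for Hsp90b1, 0.0068 for Pdia4, 0.0129 for Hspa5, 0.0167 for Calr and 0.0177 for Dnajb9. In 70 groups of 4 arrays, no array of a member stood apart from its group by Dixon's critical value.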

How the results depend on the processing

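No difference called for the 10 genes changed sign under an alternative run. Atf4 at ZT12, at -0.01 and not called, was 0.35 and called with its other probe set. Hsp90b1 on the diet average, at 0.02 and not called, was -0.13 and called with its other probe set. Of 44 calls of members, 25 were kept under every alternative run and every array left out, other probe sets aside, and of the 11 calls of a diet difference 4 were: Creld2, Hsp90b1 and Herpud1 at ZT16 and Ddit3 at ZT8. At ZT0, 2 members were called with the mean of probe sets, with dim genes left out, with a replicate block and with array weights, since Atf4 was added (adjusted p of 0.0300, 0.0450, 0.0255 and 0.0216). At ZT20, 0 were called with trended and robust eBayes (Ddit3, 0.0657), with array medians subtracted (0.0527) and with a replicate block (0.0601). The replicate block also lost Calr at ZT16 (0.0637). Subtracted array medians also lost Ddit3 at ZT12 (0.0574). On the diet average 2 were called with the mean of probe sets (Atf4, 0.0264) and 0 without ZT8. The test of diet by time called 5 without ZT12. The cosine called 0 in the control diet without ZT8 and 0 with a random block for each diet and hour, which left 1 in the high fat diet. The cause was not tested.

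When each array was left out in turn, the count of members called ranged from 0 to 2 at ZT0, 0 to 0 at ZT4, 1 to 2 at ZT8, 1 to 4 at ZT12, 3 to 4 at ZT16, 0 to 1 at ZT20, 1 to 2 on the diet average, 8 to 8 for diet by time, 9 to 9 and 8 to 9 for time in the control and the high fat diet, 1 to 4 and 4 to 4 for the cosine in these diets, and 0 to 1 for its difference. With no array left out, 0.854%, 0.386%, 8.34%, 18.0%, 1.24% and 0.702% of all genes were called from ZT0 to ZT20. For the other tests, in the same order, the shares were 7.59%, 19.0%, 43.9%, 41.5%, 6.66%, 11.2% and 3.58%.

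The groups hold 2 to 4 arrays, and ZT8 rests on 2 for each diet. Levels of different members were not compared, since probe sets differ in response. The ranks of cell type markers among gene means do compare genes and carry this limit. The arrays do not separate spliced from unspliced Xbp1 here.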
